A study of Homo sapiens with 12 samples.

Results

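FOS, FOSB, JUN, JUNB, EGR1, EGR3, IER2, DUSP1, KLF6 and ATF3 are human immediate early genes, and their mRNAs were followed here by gene symbol through 12 RNA-seq libraries of HEK-293T cells. The 10 genes were chosen as a family of short-lived mRNAs, are 10 of 58290 genes and reporters in the tables, and hold 53 of 200403 measured targets. None of the 10 passed edgeR's test over all genes in any of 5 comparisons. FOS, EGR1, DUSP1, JUN, ATF3, EGR3 and JUNB followed the average of the other genes over the libraries, in part through 1 library, and KLF6 separated the guides in opposite directions with the 2 effectors.

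HEK-293T is a line of human embryonic kidney origin with the large T antigen of SV40. All 12 samples held a CIRTS effector, a protein assembled from human domains that a guide RNA directs to its target, and no sample without an effector was analysed here. The labels name 4 groups of 3 libraries: CIRTS-3 YTHDF2 with a SMARCA4 guide (called YTHDF2-SMARCA4 below), CIRTS-3 YTHDF2 with a non-targeting (NT) guide (YTHDF2-NT), CIRTS-12 Nuclease with a SMARCA4 guide (nuclease-SMARCA4) and CIRTS-12 Nuclease with an NT guide (nuclease-NT). YTHDF2 is a reader of N6-methyladenosine that recruits deadenylases to mRNA, and SMARCA4 encodes an ATPase of the BAF chromatin remodelling complexes. The labels do not say how the effectors were delivered or in which batches the cells were handled, so effector and batch cannot be told apart. The samples of a group are called biological replicates in the series.

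Immediate early genes are switched on within minutes of a growth factor, stress or serum signal without new protein synthesis, mostly through MAP kinases that act on the factors SRF, ELK1 and CREB at their promoters. Their mRNAs are rapidly lost again, in many cases through AU-rich elements in the 3′ UTR that bind decay factors such as ZFP36. FOS, FOSB, JUN and JUNB form the AP-1 dimers, ATF3 and KLF6 are stress-responsive factors, EGR1 and EGR3 are zinc finger factors, IER2 is a nuclear regulator of transcription, and DUSP1 is a phosphatase that switches MAP kinases off.

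The promoter stretches of EGR1, DUSP1 and IER2 are shown as examples. EGR1 and DUSP1, like FOS, lie at one end, and IER2 at the other, of the co-variation described further down. The sequences are the 250 bases before the annotated start in RefSeq (GRCh38.p14), written 5′ to 3′ on the gene's strand. Capitals mark CArG boxes, the SRF site, and TGACG or its reverse complement CGTCA, the core of the CRE site bound by CREB and ATF factors. The EGR1 stretch is chr5:138465229-138465478 (plus strand), the DUSP1 stretch chr5:172771196-172771445 (minus strand) and the IER2 stretch chr19:13150161-13150410 (plus strand).
EGR1: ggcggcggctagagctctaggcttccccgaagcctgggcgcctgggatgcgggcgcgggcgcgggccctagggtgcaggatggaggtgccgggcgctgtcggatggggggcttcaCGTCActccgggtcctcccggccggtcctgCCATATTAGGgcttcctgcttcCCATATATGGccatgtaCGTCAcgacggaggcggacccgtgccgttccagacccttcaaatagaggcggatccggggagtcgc
DUSP1: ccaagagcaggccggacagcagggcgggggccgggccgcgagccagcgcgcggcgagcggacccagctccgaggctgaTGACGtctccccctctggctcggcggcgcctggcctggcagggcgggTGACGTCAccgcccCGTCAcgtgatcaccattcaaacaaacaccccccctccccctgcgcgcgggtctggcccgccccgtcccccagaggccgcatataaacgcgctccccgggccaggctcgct
IER2: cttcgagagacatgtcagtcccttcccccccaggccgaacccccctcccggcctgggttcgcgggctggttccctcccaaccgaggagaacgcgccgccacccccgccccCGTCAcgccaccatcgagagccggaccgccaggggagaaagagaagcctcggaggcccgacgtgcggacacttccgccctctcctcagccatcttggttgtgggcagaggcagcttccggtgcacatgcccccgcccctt

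Promoters of 9 of the 10 genes were searched, on both strands, beside 35116 RefSeq promoters of the same length. A CArG box was found in 1 of the 9 genes, EGR1, which had 2, and in 1.16% of all promoters. TGACG was found in 7 of the 9 (DUSP1, EGR1, FOS, FOSB, IER2, JUN and JUNB), against 21.2% of all. The full palindrome TGACGTCA, which contains TGACG, was found in DUSP1 alone of the 9 and in 1.65% of all promoters. The AP-1 site TGACTCA was in none of the 9 and in 4.2% of all. FOS, which followed the other genes about as closely as DUSP1, held 1 TGACG and no CArG box, as did IER2. ATF3 and KLF6 held neither. A link between these sites and the co-variation was not tested. These matches describe letters within 250 bases and no binding was measured.

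AU-rich pentamers (ATTTA) are a known mark of short-lived mRNAs, and the 30-base windows below show them in 4 of the genes. They are written in DNA letters from GENCODE 29 transcripts (GRCh38), with ATTTA in capitals. They lie at chr14:75282057-75282086 (plus strand) for FOS, chr5:172768641-172768670 (minus strand) for DUSP1, chr10:3778791-3778820 (minus strand) for KLF6 and chr5:138469063-138469092 (plus strand) for EGR1.
FOS: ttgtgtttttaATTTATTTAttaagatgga
DUSP1: ggctggtccttATTTATTTAacttcacccg
KLF6: gtATTTAcaaatataacacaacaATTTAac
EGR1: actgaaaatgtaaATTTAtaaatatattca

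In FOS and DUSP1 the pentamers in the window overlap. The 3′ UTR of the main FOS model held 5 pentamers, or 6.20 per kb. That of DUSP1 held 4, or 5.95 per kb. These densities lay at percentiles 94.3 and 93.6 of 12241 tested genes with a 3′ UTR of at least 100 bases. JUNB followed with 2, or 4 per kb, and the density was 2.47 per kb in ATF3, 2.33 in JUN, 1.69 in KLF6, 1.39 in FOSB, 1.07 in EGR3 and 0.81 in EGR1. IER2 had none. In all, 9 of the 10 genes held the pentamer, against 70.1% of the 12241 genes, and 6 of the 10 were above the median density of 1.65 per kb.

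The libraries held 9207196 to 18047859 estimated counts, and 16297 genes passed the filter on low counts, all 10 immediate early genes among them. Of HEK-293T cells 7 lineage markers were measured, all of which passed the filter, with a summed level of 598 to 708 TPM over the 12 libraries. VIM made up most of that sum, at 368 to 468 TPM. NEFM was at 68.8 to 112 TPM, KRT18 at 52.4 to 67.7, NEFL at 25.2 to 42.5 and KRT8 at 24.8 to 34.8. LHX1 was at 1.80 to 5.26 TPM and PAX2 at 0.432 to 2.04 TPM, while the fibroblast marker COL1A1 was at 2.20 to 3.40 TPM. The sums alone thus do not settle identity. Fibroblast markers summed to 3.90 to 5.96 TPM and blood markers to 1.74 to 7.78 TPM, with HBB at 0 in every library. Endothelial markers summed to 0.101 to 0.576 TPM and liver markers to 0.235 to 1.45 TPM, with SERPINA1 at 0, and none of either list passed the filter. SMARCA4, the guide's target, was at 224.8 ± 17.0 CPM in YTHDF2-SMARCA4 and 262.5 ± 35.4 CPM in YTHDF2-NT, and at 236.1 ± 15.4 CPM in nuclease-SMARCA4 and 237.6 ± 10.7 CPM in nuclease-NT (SD, n = 3 each). Counts assigned to YTHDF2 were at 5653 ± 724 CPM in YTHDF2-SMARCA4 and 6619 ± 1307 CPM in YTHDF2-NT, against 240.8 ± 32.7 CPM in nuclease-SMARCA4 and 263.6 ± 17.9 CPM in nuclease-NT. The effector of the YTHDF2 groups is named for YTHDF2. Reads of its YTHDF2 sequence and of the cells' own gene were not told apart, so these values do not give the level of the cells' own gene. The libraries YTHDF2-NT 1 and YTHDF2-NT 2 stood apart. The rank correlation between transcript length and the deviation of 11482 genes from their mean over all libraries was −0.63 in YTHDF2-NT 1 and 0.61 in YTHDF2-NT 2, against −0.34 to 0.44 in the other 10. The 10 genes had TPM-weighted lengths of 1608 to 4382 bases (median 2679, against 2048 over tested genes).

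Per length, ATF3 and JUN stood far above the rest. ATF3 averaged 126.5 ± 31.0 TPM over the 12 libraries and JUN 84.3 ± 14.0 TPM (SD, n = 12), at percentiles 93.4 and 90.0 of tested genes. A middle group followed with IER2 at 17.7 ± 1.90 TPM, KLF6 at 16 ± 1.24 TPM, DUSP1 at 15.7 ± 3.51 TPM and JUNB at 10.2 ± 1.45 TPM. The ranges of IER2, KLF6 and DUSP1 over the libraries overlapped, and a difference between these genes was not tested. EGR1 was at 5.11 ± 1.63 TPM and FOS at 2.71 ± 1.16 TPM. FOSB was at 1.33 ± 0.325 TPM and EGR3 at 0.480 ± 0.225 TPM, at percentiles 17.0 and 5.88 of tested genes. EGR3 rested on 11 to 36 estimated counts a library and FOS on 26 to 108. Among the AP-1 subunits JUN was thus far more abundant per length than FOS, JUNB or FOSB.

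The ATF3 level came mostly from 1 transcript model. ATF3-206 held 83.8% of the gene's counts and averaged 86.7 TPM, ATF3-202 held 8.70% and ATF3-205 3.58%. FOS-201 held 95% of the FOS counts, KLF6-206 97.9% of those of KLF6, and IER2-201 79.0% of those of IER2. JUN, JUNB, EGR1 and DUSP1 have a single model. FOSB counts were split mainly over FOSB-203 (30.6%), FOSB-201 (21.7%), FOSB-210 (21.5%) and FOSB-206 (12.5%), and FOSB-203 held 0 to 68.0% in the YTHDF2-NT libraries. Whether counting used strand is not stated in the labels. By gene span, JUNB lies opposite HOOK2 (12.4 CPM) and FOSB opposite ERCC1 (50.5 CPM). Overlap of their exons was not examined, so it is not known whether reads of these pairs can be told apart. The 10 genes lie at chr14:75278774-75282230 (FOS), chr19:45467995-45475179 (FOSB), chr1:58780788-58784327 (JUN), chr19:12791496-12793315 (JUNB), chr5:138465490-138469315 (EGR1), chr8:22687659-22693302 (EGR3), chr19:13150415-13154908 (IER2), chr5:172768090-172771195 (DUSP1), chr10:3775996-3785281 (KLF6) and chr1:212565334-212620777 (ATF3) in GRCh38.

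**Figure D1:**
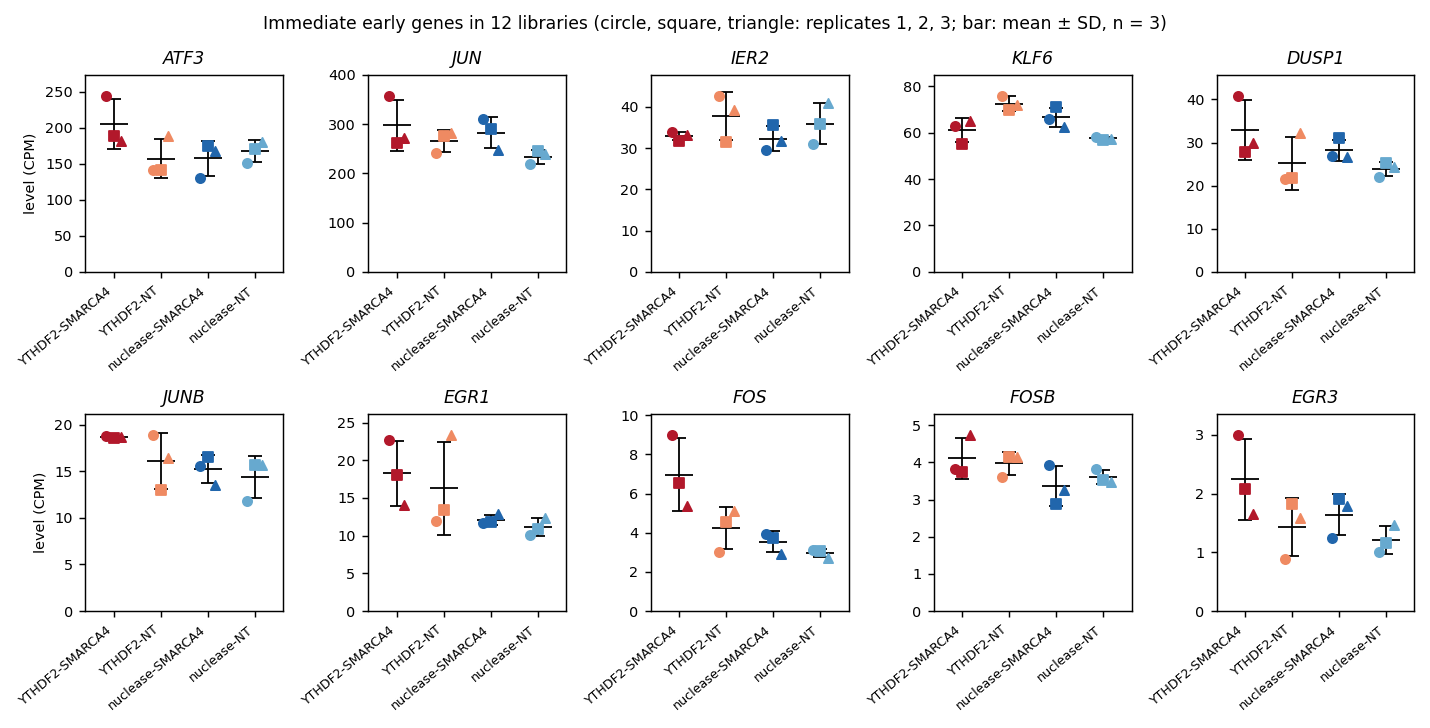
Level of each of the 10 genes in CPM (vertical axis, from 0, a scale of its own for each gene) in the 4 groups (horizontal axis). Each point is a library, and the bars give the mean and SD of 3 libraries. FOS, ATF3, JUN, DUSP1 and EGR3 have their highest point in the library YTHDF2-SMARCA4 1, while KLF6 is highest in YTHDF2-NT.

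Levels between groups are given as CPM, the counts divided by TMM-corrected library size, in the order of the libraries' replicate numbers. Overlap of groups is judged on CPM, and some separations did not hold in TPM, as given below. These are bulk libraries, in which fewer cells that express a gene and less of its mRNA per cell cannot be told apart. FOS, the AP-1 subunit that pairs with JUN proteins, had 8.99, 6.53 and 5.34 CPM in YTHDF2-SMARCA4 and 3.04, 4.57 and 5.09 CPM in YTHDF2-NT. It had 3.94, 3.73 and 2.92 CPM in nuclease-SMARCA4 and 3.11, 3.06 and 2.73 CPM in nuclease-NT. In CPM the YTHDF2-SMARCA4 libraries were thus the 3 highest of the 12, and the closest library of another group was YTHDF2-NT 3. In TPM the groups of FOS overlapped. YTHDF2-SMARCA4 had 5.02, 3.71 and 2.93 TPM, against 3.78 TPM in YTHDF2-NT 2 and 3.32 TPM in nuclease-SMARCA4 1. FOSB, a paralog of FOS, had 3.83, 3.75 and 4.74 CPM in YTHDF2-SMARCA4 and 3.6, 4.15 and 4.15 CPM in YTHDF2-NT. It had 3.94, 2.89 and 3.25 CPM in nuclease-SMARCA4 and 3.81, 3.53 and 3.47 CPM in nuclease-NT, and its groups overlapped in all 4 comparisons of groups.

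JUN, which can pair with itself or with FOS proteins, had 358, 263 and 272 CPM in YTHDF2-SMARCA4 and 241, 277 and 282 CPM in YTHDF2-NT. It had 310.0, 291 and 247 CPM in nuclease-SMARCA4 and 218, 245 and 239 CPM in nuclease-NT. All 3 nuclease-SMARCA4 libraries were above nuclease-NT, while the YTHDF2 groups overlapped. JUNB, which often opposes JUN in AP-1 dimers, had 18.8, 18.6 and 18.7 CPM in YTHDF2-SMARCA4 and 18.9, 13.0 and 16.4 CPM in YTHDF2-NT. It had 15.5, 16.5 and 13.5 CPM in nuclease-SMARCA4 and 11.8, 15.6 and 15.7 CPM in nuclease-NT. The YTHDF2-SMARCA4 libraries had an SD of 0.134 CPM and lay above all nuclease libraries.

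EGR1, a zinc finger factor widely used as a marker of recent stimulation, had 22.6, 18.1 and 14.1 CPM in YTHDF2-SMARCA4 and 12, 13.5 and 23.4 CPM in YTHDF2-NT. It had 11.7, 11.8 and 12.8 CPM in nuclease-SMARCA4 and 10.1, 10.9 and 12.4 CPM in nuclease-NT. The nuclease groups were tight, and the YTHDF2 groups spread over a range that overlapped, with the single highest value in YTHDF2-NT 3. EGR3, an EGR family factor, had 3.0, 2.08 and 1.65 CPM in YTHDF2-SMARCA4 and 0.880, 1.83 and 1.58 CPM in YTHDF2-NT. It had 1.24, 1.90 and 1.78 CPM in nuclease-SMARCA4 and 1.01, 1.15 and 1.47 CPM in nuclease-NT. The groups of EGR3 overlapped in all 4 comparisons of groups.

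DUSP1 had 40.9, 27.8 and 29.9 CPM in YTHDF2-SMARCA4 and 21.4, 21.7 and 32.3 CPM in YTHDF2-NT. It had 26.8, 31.1 and 26.7 CPM in nuclease-SMARCA4 and 21.9, 25.3 and 24.4 CPM in nuclease-NT. Only the nuclease groups did not overlap, with nuclease-SMARCA4 higher. IER2 had 33.9, 31.8 and 33.1 CPM in YTHDF2-SMARCA4 and 42.7, 31.4 and 39.3 CPM in YTHDF2-NT. It had 29.5, 35.6 and 31.7 CPM in nuclease-SMARCA4 and 31.0, 35.7 and 41.0 CPM in nuclease-NT. With both effectors its mean was lower with the SMARCA4 guide, and all its groups overlapped.

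KLF6, a Krüppel-like factor with growth-inhibitory roles, had 63.0, 55.3 and 65.0 CPM in YTHDF2-SMARCA4 and 76.0, 69.7 and 72.1 CPM in YTHDF2-NT. It had 66.1, 71.1 and 62.6 CPM in nuclease-SMARCA4 and 58.3, 56.9 and 57.4 CPM in nuclease-NT. It was the steadiest of the 10, with a biological coefficient of variation of 6.96%. In CPM its guide groups separated in opposite directions with the 2 effectors. ATF3, a stress-induced factor of the ATF/CREB family, had 245, 189 and 181 CPM in YTHDF2-SMARCA4 and 141, 141 and 188 CPM in YTHDF2-NT. It had 130.2, 175 and 168 CPM in nuclease-SMARCA4 and 151, 171 and 181 CPM in nuclease-NT. YTHDF2-SMARCA4 lay above nuclease-SMARCA4 in all 3 libraries and overlapped with YTHDF2-NT by the third library of that group.

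The first comparison asks whether the SMARCA4 guide altered these mRNAs in YTHDF2 cells. FOS, ATF3 and DUSP1 had higher means and KLF6 a lower mean with the SMARCA4 guide, and none passed edgeR's quasi-likelihood test with Benjamini-Hochberg adjustment over all 16297 genes (0 called, against a background of 0% of genes). DESeq2 called none of the 10 either, and 0.00289% of genes. The DESeq2 shares here and below are of 34560 genes, before any filter on low counts. Those of edgeR are of the 16297 filtered genes, so the shares of the 2 tools are not alike. FOS averaged 6.96 ± 1.86 CPM in YTHDF2-SMARCA4 and 4.23 ± 1.06 CPM in YTHDF2-NT (SD, n = 3 each), a 1.62-fold level and a log2 fold change of 0.70 (SE 0.228, 95% interval 0.21 to 1.19, edgeR unadjusted p = 0.00875, adjusted p = 0.703). KLF6 averaged 61.1 ± 5.12 CPM in YTHDF2-SMARCA4 and 72.6 ± 3.17 CPM in YTHDF2-NT, a log2 fold change of −0.25 (SE 0.0789, 95% interval −0.42 to −0.08, edgeR unadjusted p = 0.00747, adjusted p = 0.703). These were the 2 genes whose groups did not overlap in CPM, 1 above and 1 below, against 4.29% and 4.98% of all genes. In TPM the groups of FOS overlapped and those of KLF6 did not.

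ATF3 averaged 205.0 ± 34.6 CPM in YTHDF2-SMARCA4 and 156.9 ± 27.2 CPM in YTHDF2-NT, a log2 fold change of 0.38 (SE 0.147, edgeR unadjusted p = 0.0209, adjusted p = 0.703). DUSP1 averaged 32.9 ± 7.03 CPM in YTHDF2-SMARCA4 and 25.1 ± 6.20 CPM in YTHDF2-NT, a log2 fold change of 0.38 (SE 0.169, edgeR unadjusted p = 0.0434, adjusted p = 0.703). EGR3 had a log2 fold change of 0.63 (SE 0.338, edgeR adjusted p = 0.706) and a 95% interval from −0.10 to 1.36. In all, 4 of the 10 had an unadjusted p below 0.05, against 6.82% of genes, 8 of the 10 were higher, and their median log2 fold change was 0.19, against −0.01 over all genes. That median was 0.37 without YTHDF2-NT 3. Without the library YTHDF2-SMARCA4 1 the log2 fold change was 0.20 for DUSP1, 0.25 for ATF3 and 0.39 for EGR3, and without YTHDF2-NT 1 that of EGR3 was 0.38. Without YTHDF2-NT 3 that of DUSP1 was 0.60, and without YTHDF2-NT 2 KLF6 passed the test (−0.27, edgeR adjusted p = 0.0486), as did 1585 genes in all. Without a filter on low counts edgeR called ATF3 (adjusted p = 0.0056) among 214 genes. Of the 7 HEK-293T markers 5 were lower with the SMARCA4 guide in YTHDF2 cells, with a median log2 fold change of −0.15, and their part in the result was not tested.

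In nuclease cells JUN, DUSP1 and KLF6 were higher in CPM with the SMARCA4 guide in every library. In TPM the groups of all 3 overlapped. The lowest nuclease-SMARCA4 and highest nuclease-NT values were 77.6 and 81.9 TPM for JUN, 15.1 and 15.4 TPM for DUSP1 and 14.8 and 16.2 TPM for KLF6. Again none passed edgeR's test over all genes (0 called, against 0.00614% of genes). DESeq2 called none of the 10, and 0.373% of genes. JUN averaged 282.7 ± 32.1 CPM in nuclease-SMARCA4 and 234.0 ± 14.2 CPM in nuclease-NT (SD, n = 3 each), a log2 fold change of 0.27 (SE 0.119, 95% interval 0.02 to 0.53, edgeR unadjusted p = 0.0385, adjusted p = 0.426). KLF6 averaged 66.6 ± 4.25 CPM in nuclease-SMARCA4 and 57.5 ± 0.691 CPM in nuclease-NT, a log2 fold change of 0.21 (SE 0.0796, 95% interval 0.04 to 0.38, edgeR unadjusted p = 0.0192, adjusted p = 0.36). The 3 genes without overlap stand against 12.8% of all genes with all libraries above and 12.2% below. DUSP1 averaged 28.2 ± 2.49 CPM in nuclease-SMARCA4 and 23.9 ± 1.74 CPM in nuclease-NT, with an edgeR interval of its log2 fold change from −0.13 to 0.61. EGR3 had the largest log2 fold change of the 10, 0.45 (SE 0.356, edgeR adjusted p = 0.677), which was 0.14 on length-scaled TPM. The unadjusted p was below 0.05 for 2 of the 10, against 10.9% of genes, 7 of the 10 were higher, and the median log2 fold change was 0.17, against 0.00 over all genes. The 7 HEK-293T markers were all higher with the SMARCA4 guide in nuclease cells, 4 of them at an unadjusted edgeR p below 0.05, with a median log2 fold change of 0.26. They summed to 664 to 696 TPM in nuclease-SMARCA4, against 604 to 651 TPM in nuclease-NT, and their part in the result was not tested.

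KLF6 had the smallest p of the 10 for a difference of its guide effect between the effectors. The guide effect in YTHDF2 cells minus that in nuclease cells was −0.46 on the log2 scale (SE 0.112, 95% interval −0.70 to −0.22, edgeR unadjusted p = 0.00118, adjusted p = 0.254), since KLF6 was lower with the SMARCA4 guide in YTHDF2 cells and higher in nuclease cells. For ATF3 the difference of effects was 0.47 (SE 0.208, 95% interval 0.02 to 0.92, edgeR unadjusted p = 0.0409, adjusted p = 0.443). None of the 10 was called (0% of genes), and 2 of the 10 had an unadjusted p below 0.05, against 11.1% of genes. With DESeq2 KLF6 was called (−0.45, adjusted p = 0.0488), as were 0.153% of genes, and with edgeR without YTHDF2-NT 2 it was called as well (−0.48, adjusted p = 0.0255), as were 1444 genes. With the length trend of each library removed its edgeR value was −0.59 with an adjusted p of 0.166. Without a filter on low counts edgeR called ATF3 for this difference (adjusted p = 0.0301) among 493 genes.

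**Figure D2:**
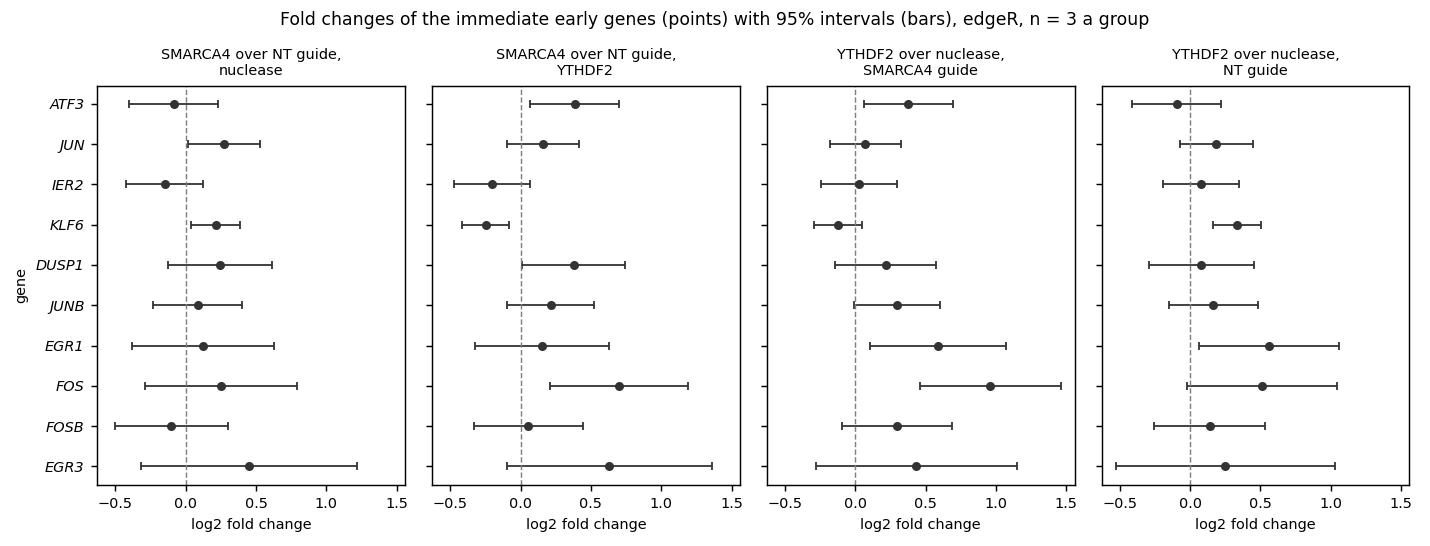
Log2 fold change (horizontal axis) of each gene (vertical axis) in the 4 comparisons of groups, from edgeR, with 95% intervals as bars and a dashed line at 0. In the SMARCA4-guide panel for YTHDF2 over nuclease the point of FOS lies at 0.96, and KLF6 lies at 0.21 in nuclease cells and −0.25 in YTHDF2 cells for the SMARCA4 over NT guide.

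YTHDF2 cells were also set against nuclease cells that carried the same guide. These comparisons use the same libraries as those above and are not independent of them. With the SMARCA4 guide, FOS, EGR1, ATF3 and JUNB were higher in CPM in every YTHDF2-SMARCA4 library than in any nuclease-SMARCA4 library. In TPM this held for EGR1, ATF3 and JUNB, while FOS overlapped. None was called by edgeR over all genes (0 called, against 0.00614% of genes). DESeq2 called none of the 10, and 0.263% of genes. FOS averaged 6.96 ± 1.86 CPM in YTHDF2-SMARCA4 and 3.53 ± 0.538 CPM in nuclease-SMARCA4 (SD, n = 3 each), a 1.95-fold level and a log2 fold change of 0.96 (SE 0.231, 95% interval 0.46 to 1.46, edgeR unadjusted p = 0.00108, adjusted p = 0.233). EGR1 averaged 18.3 ± 4.28 CPM in YTHDF2-SMARCA4 and 12.1 ± 0.639 CPM in nuclease-SMARCA4, a log2 fold change of 0.59 (SE 0.225, 95% interval 0.10 to 1.07, edgeR unadjusted p = 0.021, adjusted p = 0.372). ATF3 averaged 205.0 ± 34.6 CPM in YTHDF2-SMARCA4 and 157.9 ± 24.3 CPM in nuclease-SMARCA4, a log2 fold change of 0.38 (SE 0.146, edgeR unadjusted p = 0.0233, adjusted p = 0.381). The 4 genes without overlap stand against 13.4% of all genes above and 13.4% below.

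In that comparison 3 of the 10 had an unadjusted p below 0.05, against 11.5% of genes, 9 of the 10 were higher, KLF6 being the exception, and the median log2 fold change was 0.30, against 0.00 over all genes. When only these 2 groups entered the edgeR fit, FOS (adjusted p = 0.0287) and EGR1 (adjusted p = 0.0436) were called among 660 genes. Without a filter on low counts edgeR called FOS (adjusted p = 0.0114), EGR1 (adjusted p = 0.0186) and ATF3 (adjusted p = 0.0168) among 296 genes. Of the 7 HEK-293T markers 6 were lower in YTHDF2-SMARCA4 than in nuclease-SMARCA4, with a median log2 fold change of −0.14, and their part was not tested. Without YTHDF2-SMARCA4 1 the log2 fold change was 0.74 for FOS, 0.41 for EGR1 and 0.23 for ATF3.

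With the NT guide, KLF6 averaged 72.6 ± 3.17 CPM in YTHDF2-NT, against 57.5 ± 0.691 CPM in nuclease-NT (SD, n = 3 each), a 1.26-fold level and a log2 fold change of 0.34 (SE 0.0795, 95% interval 0.16 to 0.51, edgeR unadjusted p = 0.000948, adjusted p = 0.23). It was the single gene of the 10 without overlap, against 6.86% of all genes above and 5.96% below, and none of the 10 was called (0.0491% of genes were). DESeq2 called KLF6 (adjusted p = 0.028), as it did 0.298% of genes, and edgeR called it without YTHDF2-NT 2 (0.35, adjusted p = 0.02), as it did 1610 genes. EGR1 averaged 16.3 ± 6.18 CPM in YTHDF2-NT, against 11.1 ± 1.17 CPM in nuclease-NT, a log2 fold change of 0.56 (SE 0.23, edgeR unadjusted p = 0.0298, adjusted p = 0.398), which was 0.20 without YTHDF2-NT 3. FOS averaged 4.23 ± 1.06 CPM in YTHDF2-NT, against 2.97 ± 0.204 CPM in nuclease-NT, a log2 fold change of 0.51 (SE 0.247, edgeR adjusted p = 0.48), which was 0.32 on length-scaled TPM. An unadjusted p below 0.05 was found for 2 of the 10, against 10.9% of genes, and 9 of the 10 were higher, ATF3 being the exception. The median was 0.18, against 0.01 over all genes. Without a filter on low counts edgeR called EGR1 (adjusted p = 0.036) among 360 genes. Of the 7 HEK-293T markers 6 were higher in YTHDF2-NT than in nuclease-NT, with a median log2 fold change of 0.19, and their part was not tested.

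The exact two-sided permutation test of the mean CPM, 3 libraries against 3, cannot go below p = 0.1. It gave that value in each of the 10 cases without overlap, out of 40 tests of a gene in a comparison (4 and 1 with the SMARCA4 and NT guides for YTHDF2 over nuclease, and 2 and 3 for the guide in YTHDF2 and nuclease cells), and 0.4 after Benjamini-Hochberg adjustment over the 40. Of all genes, 26.7% and 12.8% had no overlap for YTHDF2 over nuclease with the SMARCA4 and NT guides, and 9.27% and 25.1% for the guide in YTHDF2 and nuclease cells.

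Most of the genes were high or low in the same libraries. Each gene's log2 CPM was put on a z-score over the libraries and averaged over the 10 genes. The library YTHDF2-SMARCA4 1 had the highest average, 1.33, and was the highest of the 12 for 5 genes, FOS, JUN, EGR3, DUSP1 and ATF3. The second highest, YTHDF2-NT 3 at 0.77, had all 10 genes above their own mean. The lowest was nuclease-NT 1 at −1.01, with the lowest level of 3 genes. The other 2 libraries of YTHDF2-SMARCA4 were at 0.26 and 0.46, those of YTHDF2-NT both at −0.18, those of nuclease-SMARCA4 at −0.27, 0.07 and −0.46, and those of nuclease-NT at −0.49 and −0.30. A group's position thus rested in part on 1 library, in YTHDF2-SMARCA4 the first and in YTHDF2-NT the third.

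YTHDF2-SMARCA4 1 held 11744214 estimated counts, the second fewest of the 12, and YTHDF2-NT 3 held 14313712. The rank correlation of gene deviations with transcript length was 0.44 in the first and −0.32 in the second, opposite signs for the 2 libraries with the highest averages. The part of length in these averages was not tested. The log2 fold change of FOS with the SMARCA4 guide, YTHDF2 over nuclease, was 0.97 with the length trend removed, against 0.96 before. FOS has a length of 1896 bases, near the median of 2048 over tested genes, so its value says little about the longer genes. The difference of guide effects of KLF6, at 4382 bases, moved more under the same removal, as given above.

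**Figure D3:**
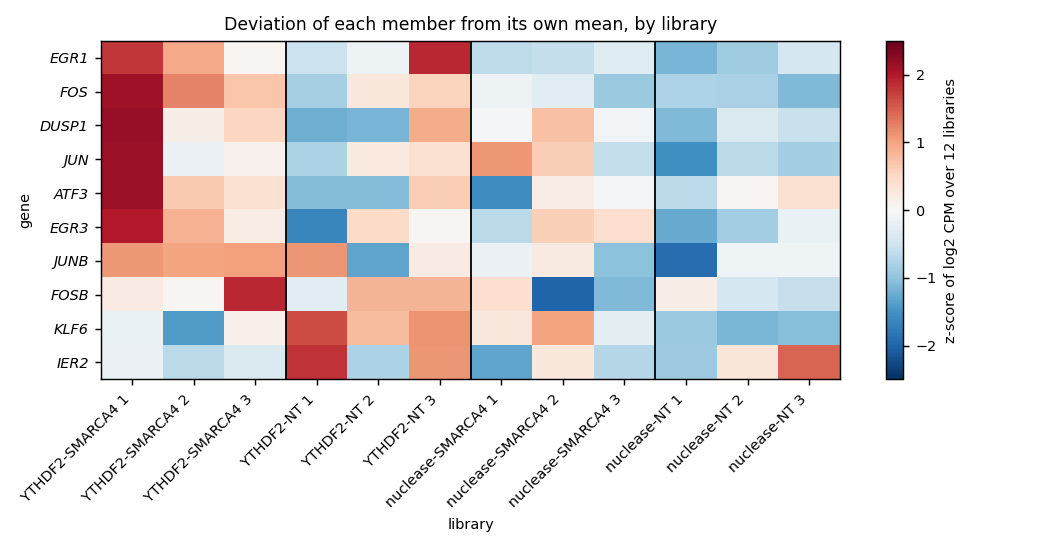
Deviation of each gene (rows) from its own mean in each library (columns), as a z-score of log2 CPM over the 12 libraries, with red above and blue below the mean and black lines between groups. The upper 6 rows are red together in YTHDF2-SMARCA4 1, while KLF6 and IER2, the lowest rows, are highest in YTHDF2-NT 1.

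Of the 45 pairs of genes, 37 had a positive Pearson correlation of log2 CPM over the 12 libraries and 16 were above 0.5, with a median of 0.35 and a range of −0.30 to 0.82. The libraries share preparation and depth with all their genes, and the values are descriptions. The same shares over pairs of other genes were not computed. Whether the co-variation is particular to these genes was thus not tested. The highest were FOS with EGR1 at 0.82 (Spearman 0.63), DUSP1 with ATF3 at 0.81 (Spearman 0.73) and JUN with DUSP1 at 0.79 (Spearman 0.73). Within groups, after each group's mean was subtracted, 32 pairs were positive and 15 above 0.5, with a median of 0.26, and the 3 pairs stood at 0.66, 0.86 and 0.71. JUNB with IER2 also stood at 0.86 within groups, against 0.42 over the 12 libraries. The other pairs of JUNB were weaker within groups. Its median r was 0.15, against 0.44 over the 12 libraries, with 1 of 9 pairs above 0.5, and r was −0.22 with FOS and −0.27 with EGR3. Without YTHDF2-SMARCA4 1, 35 pairs were positive, 11 were above 0.5 and the median was 0.31. Without the 2 libraries farthest from the median of the first gene of the pair, r was 0.65 for FOS with EGR1, 0.57 for DUSP1 with ATF3 and 0.50 for JUN with DUSP1.

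The genes differed in how closely they followed the others. Against the mean z-score of the other 9 genes, r was 0.85 for EGR1, 0.81 for FOS, 0.80 for DUSP1, 0.71 for JUN, 0.65 for ATF3, 0.63 for EGR3 and 0.62 for JUNB. It was 0.16 for FOSB, 0.10 for KLF6 and 0.01 for IER2. Some pairs rested on 1 library. Without YTHDF2-SMARCA4 1, r was −0.08 for JUN with ATF3, against 0.42 over the 12 libraries, and 0.31 for FOS with ATF3, against 0.62.

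**Figure D4:**
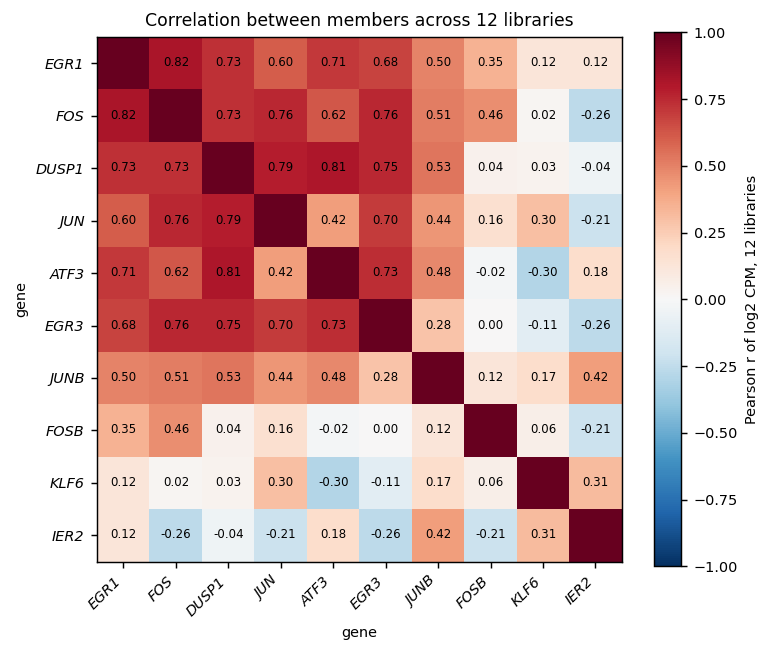
Pearson correlation of log2 CPM between each pair of the 10 genes over 12 libraries, from −1 (blue) to 1 (red), with the value in each cell. The cells among EGR1, FOS, DUSP1, JUN, ATF3 and EGR3 hold values of 0.42 to 0.82, and the rows of KLF6 and IER2 hold values of −0.30 to 0.42.

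Among 11475 other genes with a mean of at least 5 CPM, the 5 whose levels were most like the average of the 10 over the 12 libraries were TNFRSF12A (r = 0.95), C11orf96 (0.88), WDR45B (0.86), ADM (0.86) and SAT1 (0.85). TNFRSF12A, which encodes the TWEAK receptor Fn14, averaged 11 ± 1.02 CPM in YTHDF2-SMARCA4, 9.37 ± 1.62 CPM in YTHDF2-NT, 8.18 ± 0.483 CPM in nuclease-SMARCA4 and 7.23 ± 1.56 CPM in nuclease-NT (SD, n = 3 each). ADM, the vasodilator peptide adrenomedullin, averaged 13.6 ± 1.76 CPM in YTHDF2-SMARCA4, 10.8 ± 1.66 CPM in YTHDF2-NT, 8.72 ± 0.599 CPM in nuclease-SMARCA4 and 8.39 ± 1.62 CPM in nuclease-NT. SAT1, an enzyme of polyamine breakdown, averaged 42.5 ± 7.32 CPM in YTHDF2-SMARCA4, 35.1 ± 3.18 CPM in YTHDF2-NT, 35.9 ± 1.48 CPM in nuclease-SMARCA4 and 29.1 ± 4.19 CPM in nuclease-NT. These genes were picked for this likeness, so it is no separate finding.

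Other genes of the response were measured from lists. Of 32 other immediate early genes 31 were tested and none was called by edgeR in any of the 5 comparisons. With the SMARCA4 guide, YTHDF2 over nuclease, 7 of the 31 had an unadjusted p below 0.05, all higher, against 11.5% of genes. CYR61, a matricellular protein gene, had 13.4 ± 0.897 CPM in YTHDF2-SMARCA4 and 8.83 ± 0.221 CPM in nuclease-SMARCA4 (edgeR log2 fold change 0.60, adjusted p = 0.233). HBEGF, an EGF receptor ligand, had 6.34 ± 0.725 CPM in YTHDF2-SMARCA4 and 4.44 ± 0.545 CPM in nuclease-SMARCA4 (edgeR log2 fold change 0.52, adjusted p = 0.267). The list's median was 0.11, against 0.30 for the 10 genes. For the SMARCA4 guide in YTHDF2 cells it was 4 of 31, all higher, against 6.82% of genes, with a list median of 0.15, against 0.19 for the 10 genes. ZFP36, which encodes the decay factor tristetraprolin, had 3.54 ± 0.236 CPM in YTHDF2-SMARCA4 and 2.51 ± 0.308 CPM in YTHDF2-NT (edgeR log2 fold change 0.50, adjusted p = 0.703). For the SMARCA4 guide in nuclease cells 5 of 31 were at that level, 2 higher and 3 lower, against 10.9% of genes. RHOB, a small GTPase gene, had 181.0 ± 20.01 CPM in nuclease-SMARCA4 and 116.1 ± 8.08 CPM in nuclease-NT, and PLK2, a polo-like kinase gene, had 8.11 ± 2.26 CPM in nuclease-SMARCA4 and 15.6 ± 3.52 CPM in nuclease-NT. The lowest edgeR adjusted p of that comparison within the list was 0.142, for RHOB. With the NT guide, YTHDF2 over nuclease, 5 of 31 had an unadjusted p below 0.05, 1 higher and 4 lower, against 10.9% of genes, and the list's median was 0.07. PLK3, another polo-like kinase gene, had 4.48 ± 0.962 CPM in YTHDF2-NT, against 8.65 ± 2.42 CPM in nuclease-NT (edgeR log2 fold change −0.93, adjusted p = 0.26). For the difference of guide effects it was 8 of 31, 6 higher and 2 lower, against 11.1% of genes, with a median of 0.12.

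No gene of the regulator lists was called by edgeR in any comparison. Over all genes the share at an unadjusted edgeR p below 0.05 was 6.82% to 11.5%, depending on the comparison. Of 17 genes of the MAP kinase cascade, all tested, at most 1 had an unadjusted edgeR p below 0.05 in any comparison, and medians ran from −0.06 to 0.10 on the log2 scale. Of 12 SRF, MRTF and TCF regulators, all tested, at most 2 did, and medians ran from −0.07 to 0.04. The 2 were found for YTHDF2 over nuclease with the SMARCA4 and with the NT guide, against 11.5% and 10.9% of genes. SRF, the factor that binds the CArG box, averaged 50.4 ± 1.94 CPM in YTHDF2-SMARCA4 and 57.6 ± 3.41 CPM in YTHDF2-NT (edgeR log2 fold change −0.19, adjusted p = 0.703). Of 11 ERK feedback genes 9 were tested, with at most 2 such genes (YTHDF2 over nuclease with the NT guide, against 10.9% of genes). Their median was 0.24 for YTHDF2 over nuclease with the NT guide, against 0.18 for the 10 genes, and 0.18 with the SMARCA4 guide, against 0.30 for the 10 genes. It was 0.11 for the guide in nuclease cells, 0.07 for the guide in YTHDF2 cells and −0.10 for the difference of guide effects. ETV5, an ETS factor under ERK control, averaged 3.48 ± 2.33 CPM in YTHDF2-NT, against 1.48 ± 0.358 CPM in nuclease-NT (edgeR log2 fold change 1.22, adjusted p = 0.334). Of 12 other AP-1 and ATF partners 11 were tested, with medians of −0.06 to 0.15. At most 3 were such genes, for YTHDF2 over nuclease with the SMARCA4 guide, against 11.5% of genes. JDP2, which represses AP-1, had a difference of guide effects between YTHDF2 and nuclease cells of −0.75 on the log2 scale (edgeR adjusted p = 0.363). None of the 6 other dual-specificity phosphatases or the 9 AU-rich element binding proteins was called either. HNRNPD, the AU-rich element binding protein AUF1, averaged 655.6 ± 6.56 CPM in YTHDF2-SMARCA4 and 771.0 ± 69.1 CPM in YTHDF2-NT (edgeR log2 fold change −0.23, adjusted p = 0.703).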

How the data were processed

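Per the labels' protocols, RNA came from an RNeasy extraction of HEK-293T cells, was enriched for mRNA and became libraries through the KAPA mRNA HyperPrep chemistry. The authors deposited 1 table per library with estimated counts, TPM and lengths for 200403 targets, per the file headers. Per the submitters' processing notes the tools were kallisto and sleuth and the build hg38, and versions and strand setting are not given in the sources used here. TPM as deposited divides estimated counts by effective length and keeps no depth. Estimated counts were summed per gene ID, rounded to whole numbers and tested with edgeR 4.0.16 (quasi-likelihood, TMM, filterByExpr, 1 mean per group over all 12 libraries, R 4.3.3), with Benjamini-Hochberg adjustment over all 16297 genes and a call at adjusted p below 0.05. It left 8 residual degrees of freedom, with 11.4% as its common biological coefficient of variation. All tests are two-sided, with 95% intervals. DESeq2 1.42.0 on all genes, other filters and scalings, a fit of the compared groups alone, a replicate block and leaving out each library were alternatives. Z-scores and correlations used log2 CPM with a prior count of 2. The fit was checked on simulated counts.

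Every gene of the 10 is given by its level in every library. Fold changes with errors are given for genes at an unadjusted p below 0.05 and for the 2 largest changes of each comparison, and of other lists the 2 smallest p may be named. The genes, lists and tests were chosen with earlier results of these data known. Replicate numbers were not treated as pairs, and no label gives a batch. Libraries of a group differed by more than sampling noise, with a chi-square per degree of freedom of 3.65 to 42.9.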

Additional observations from a re-analysis of the deposited data

Results flagged for a closer look

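In CPM the guide groups of KLF6 separated in opposite directions with the 2 effectors. In TPM the YTHDF2 groups separated as well. The nuclease groups overlapped in TPM, at 14.8 to 17.3 TPM in nuclease-SMARCA4 and 14.4 to 16.2 TPM in nuclease-NT. All 3 YTHDF2-SMARCA4 libraries (55.3 to 65.0 CPM) lay below all 3 YTHDF2-NT libraries (69.7 to 76.0 CPM), and all 3 nuclease-SMARCA4 libraries (62.6 to 71.1 CPM) lay above all 3 nuclease-NT libraries (56.9 to 58.3 CPM). Of all 16297 genes 4.98% lay below in YTHDF2 cells and 12.8% above in nuclease cells, 0.638% did both, and 1.28% separated in opposite directions either way. The difference of the guide effects, YTHDF2 minus nuclease, was −0.46 on the log2 scale, with an edgeR unadjusted p = 0.00118 and an adjusted p = 0.254 over all genes. With each library left out in turn it ran from −0.50 to −0.38.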

How the results depend on the processing

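The sign of the fold changes given with errors for the 10 genes held under every alternative run for them, and those of other genes were not rerun. None of the 10 genes was called in the main fits. Without a filter on low counts 1 gene was called for the guide in YTHDF2 cells (ATF3), 3 for YTHDF2 over nuclease with the SMARCA4 guide (FOS, EGR1 and ATF3), 1 with the NT guide (EGR1) and 1 for the difference of guide effects (ATF3). With the compared groups alone 2 were called with the SMARCA4 guide (FOS and EGR1), and with DESeq2 1 with the NT guide and 1 for the difference (KLF6 in both). Leaving out a library gave 0 to 1 of the 10 for the guide in YTHDF2 cells, the NT guide and the difference, the 1 being KLF6 without YTHDF2-NT replicate 2, and 0 to 0 for the guide in nuclease cells and for the SMARCA4 guide. The cause was not tested.

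Over all genes, in the order guide in nuclease cells, guide in YTHDF2 cells, YTHDF2 over nuclease with the SMARCA4 guide and with the NT guide, and difference of guide effects, edgeR called 1, 0, 1, 8 and 0 genes. DESeq2 called 129, 1, 91, 103 and 53, and edgeR without a filter 333, 214, 296, 360 and 493. The compared groups alone gave 550, 0, 660 and 6. The replicate block gave 2, 0, 3, 4 and 1, and the block called none of the 10 genes. Length-scaled TPM gave 0, 0, 1, 1 and 0, and removal of the length trend 18, 0, 13, 14 and 3. Leaving out a library gave 0 to 44, 0 to 1585, 1 to 70, 1 to 1610 and 0 to 1444, the 1585, 1610 and 1444 without YTHDF2-NT 2 and the 44 and 70 without YTHDF2-NT 1. The genes' median log2 fold change ran from 0.14 to 0.37 for the guide in YTHDF2 cells with a library left out (0.37 without YTHDF2-NT 3), and from −0.05 (without YTHDF2-SMARCA4 1) to 0.23 for the difference of guide effects.

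Same-numbered libraries had correlations of deviations from −0.47 to 0.22, with 3 of 18 above 0.1. Differently numbered libraries had −0.31 to 0.48, with 7 of 36 above 0.1. No pairing by number was seen in these values, which cannot exclude one, and the labels do not say whether the numbers pair samples. EGR3, FOSB and FOS rest on few counts, and their intervals are wide.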
